A study of Mus musculus with 8 samples.

Results

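The genes of 10 transcription factors that specify and maintain midbrain dopaminergic (DA) neurons were followed through the open chromatin of SN4741 cells: Nr4a2, Pitx3, Lmx1a, Lmx1b, En1, En2, Foxa1, Foxa2, Otx2 and Msx1. They were listed by name, as 10 of the 21951 protein-coding genes of GENCODE mouse release M21, with no threshold on a measured value. Every called peak that overlapped a gene body or the 50 kb on either side was taken, on mm10. Peaks of different libraries that overlapped by at least 1 bp were merged, and a merged region was kept when at least 2 libraries called it. This left 57 of 84777 regions. Of these, 13 lay no more than 1 kb from a transcription start site (TSS) of the gene and are called promoter regions, and the other 44 are called distal.

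SN4741 is a clonal mouse neural precursor line from embryonic substantia nigra, immortalised by the temperature-sensitive T antigen tsA58 of SV40 under a tyrosine hydroxylase (TH) promoter. Aliquots of 50000 cells were assayed by ATAC-seq, a method that inserts sequencing adapters into accessible DNA. There were 4 libraries of undifferentiated cells, grown at 37 °C (permissive for the T antigen) in 10% fetal bovine serum (FBS). A further 4 were of cells held for 48 h at 39 °C (non-permissive) in 0.5% FBS. All 8 libraries carry the genotype label WT, and all cells carry the transgene. Temperature and serum changed together, so their effects cannot be told apart. The line is polyploid with a chromosome complement that varies from cell to cell, and copy number was not taken into account. No label says whether the replicates were separate cultures, so p-values measure only the spread between these libraries.

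In the embryonic midbrain, Otx2 marks the forebrain and midbrain domain and Foxa1 and Foxa2, forkhead factors of the ventral midline, act with the LIM homeodomain factors Lmx1a and Lmx1b to specify DA progenitors. Msx1 is a homeodomain factor downstream of Lmx1a in these progenitors. Nr4a2, an orphan nuclear receptor also known as Nurr1, and the homeodomain factor Pitx3 are required in postmitotic DA neurons for transmitter genes such as Th, and the engrailed genes En1 and En2 for the survival of these neurons.

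The peak caller kept 49.8 to 169 M fragments per library (M for mega), with 2 libraries at 37 °C above 100 M and all others at 71.2 M or below. Lists held 54845 to 92013 peaks, and all 4 lists at 39 °C were shorter than all 4 at 37 °C. The shortest list was replicate 4 at 39 °C. Promoter regions of marker genes were read against 61.1% of all protein-coding genes with a promoter region in all 8 libraries. All 6 neural progenitor genes on the list (such as Nes and Sox2) had a promoter region in all 8 libraries, and so did all 5 mesenchymal genes (such as Twist1 and Col1a1) and 4 of 5 neuronal genes. Neither muscle gene (Myod1, Myf5) and 0 of 4 blood and endothelial genes did so, although Spi1 was called in 3 libraries and Pecam1 in 7.

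The promoters of 4 genes show the range of the set. A promoter region was called in every library and changed rank at Nr4a2, En1 and Foxa2, while none was called at Lmx1a. Each line gives the 250 bases before the first TSS, on the strand of the gene, from the RefSeq GRCm38.p6 sequence (mm10), with CG dinucleotides in capitals.
Nr4a2 (chr2:57124004-57124253, minus strand): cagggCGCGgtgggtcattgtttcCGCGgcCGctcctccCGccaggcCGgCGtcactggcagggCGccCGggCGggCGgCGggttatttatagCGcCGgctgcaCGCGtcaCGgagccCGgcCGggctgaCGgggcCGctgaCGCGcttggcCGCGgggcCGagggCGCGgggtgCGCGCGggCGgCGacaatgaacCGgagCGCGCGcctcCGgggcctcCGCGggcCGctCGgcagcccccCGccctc
En1 (chr1:120602168-120602417, plus strand): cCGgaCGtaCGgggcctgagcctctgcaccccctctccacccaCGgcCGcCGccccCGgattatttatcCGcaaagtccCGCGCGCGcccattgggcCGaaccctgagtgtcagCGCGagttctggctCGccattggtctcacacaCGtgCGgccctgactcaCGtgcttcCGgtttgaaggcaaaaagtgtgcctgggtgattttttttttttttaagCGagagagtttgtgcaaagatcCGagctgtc
Foxa2 (chr2:148046970-148047219, minus strand): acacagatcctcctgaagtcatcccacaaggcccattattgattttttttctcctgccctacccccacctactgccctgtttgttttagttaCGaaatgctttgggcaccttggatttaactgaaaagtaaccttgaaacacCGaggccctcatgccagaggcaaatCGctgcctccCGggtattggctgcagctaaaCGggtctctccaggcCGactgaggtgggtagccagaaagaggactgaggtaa
Lmx1a (chr1:167688987-167689236, plus strand): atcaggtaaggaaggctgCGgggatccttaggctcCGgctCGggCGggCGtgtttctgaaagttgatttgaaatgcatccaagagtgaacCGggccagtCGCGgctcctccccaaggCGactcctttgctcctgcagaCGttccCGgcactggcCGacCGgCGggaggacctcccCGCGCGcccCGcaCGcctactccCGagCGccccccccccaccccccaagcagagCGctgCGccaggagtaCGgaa

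The sequence of Nr4a2 holds 44 CG dinucleotides, that of Lmx1a 24 and that of En1 22, against 6 at Foxa2. At Nr4a2 and En1 the called peak covered these bases in every library. At Foxa2 the peak covered all of them in replicate 1 at 37 °C alone. It covered a part in replicates 2, 3 and 4 at 37 °C and replicate 1 at 39 °C. In replicates 2, 3 and 4 at 39 °C it began downstream of the first TSS, so there the printed bases lay outside it.

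The next 5 sequences are of distal regions whose calls or whose ranks among the shared regions are set out below by temperature. Each line gives 200 bases centred on the median summit, on the plus strand, with matches to the 7 motifs searched in capitals.
Foxa2, 44.9 kb upstream (chr2:148091796-148091995): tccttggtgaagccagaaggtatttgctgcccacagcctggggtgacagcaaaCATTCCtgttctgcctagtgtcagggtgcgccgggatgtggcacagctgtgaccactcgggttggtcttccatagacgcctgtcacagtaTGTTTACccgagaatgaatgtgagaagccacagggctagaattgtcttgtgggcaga
Msx1, 11.4 kb upstream (chr5:37835882-37836081): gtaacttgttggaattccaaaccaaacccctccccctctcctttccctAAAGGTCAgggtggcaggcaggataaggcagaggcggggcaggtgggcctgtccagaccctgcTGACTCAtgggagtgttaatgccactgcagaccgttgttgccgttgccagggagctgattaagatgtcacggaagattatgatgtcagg
Otx2, 40.6 kb upstream (chr14:48714344-48714543): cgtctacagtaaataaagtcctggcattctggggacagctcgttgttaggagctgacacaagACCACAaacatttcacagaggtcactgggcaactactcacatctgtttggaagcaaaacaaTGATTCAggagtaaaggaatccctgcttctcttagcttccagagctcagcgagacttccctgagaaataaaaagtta
En2, 30.2 kb upstream (chr5:28135351-28135550): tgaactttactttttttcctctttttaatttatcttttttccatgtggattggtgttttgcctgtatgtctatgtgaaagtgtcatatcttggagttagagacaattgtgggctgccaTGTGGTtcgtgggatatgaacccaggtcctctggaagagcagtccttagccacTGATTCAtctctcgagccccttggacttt
Lmx1b, 53.0 kb downstream of the TSS, in an intron (chr2:33587384-33587583): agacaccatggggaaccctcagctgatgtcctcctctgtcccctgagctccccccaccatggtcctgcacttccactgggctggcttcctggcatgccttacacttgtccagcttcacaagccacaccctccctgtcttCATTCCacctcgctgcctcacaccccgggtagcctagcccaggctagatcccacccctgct

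The capitals mark a TEAD match and a forkhead match in the Foxa2 region, an NBRE (the monomer site of the NR4A receptors) and an AP-1 match in the Msx1 region, and RUNX and AP-1 matches in the Otx2 and En2 regions. The Lmx1b region holds 1 TEAD match.

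Of the 10 genes, 7 had a promoter region in all 8 libraries: Nr4a2, Pitx3, En1, En2, Foxa1, Foxa2 and Msx1. The background share was 61.1% of all protein-coding genes, so this count is near the background. The promoter of Lmx1b was called in 4 libraries at 37 °C and 2 at 39 °C (Fisher's exact test, two-sided, p = 0.429, adjusted p = 1.00). Lmx1a and Otx2 had none in either group, as did 32.5% of all protein-coding genes. At Lmx1a 1 library, replicate 4 at 37 °C, called a peak within 1 kb of a TSS, which did not reach the minimum of 2 libraries. No protein-coding gene passed after adjustment and 290 had an unadjusted p under 0.05, where 4 libraries against 4 cannot give a p below 0.0286.

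The promoters of Lmx1a and Otx2, without a promoter region, were rich in CG. Within 500 bp of the first TSS the observed over expected CpG ratio was 0.744 at Lmx1a and 0.770 at Otx2, above the median of 0.717 for genes with a promoter region in all 8 libraries and far above the median of 0.185 for genes with none. Of the 10083 protein-coding genes with a ratio of at least 0.6, 91.8% had a promoter region in all 8 libraries and 5.15% had none. Lmx1a and Otx2 belonged to the smaller class.

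The level of each promoter was read as the percentile of its −log10 q within the peak list of the library, where 100 is the strongest peak. The median over promoter regions of protein-coding genes was 82.7 to 84.9 in the 8 libraries. At 37 °C the order by the strongest promoter region of each gene was Nr4a2 (94.2 ± 0.571), Foxa2 (88.2 ± 1.44), Pitx3 (87.9 ± 2.49), Msx1 (87.7 ± 0.336), En1 (80.4 ± 2.34), En2 (67.7 ± 3.39), Foxa1 (40.8 ± 4.13) and Lmx1b (31.6 ± 9.03; SD, n = 4 each). Foxa2, Pitx3 and Msx1 overlapped each other, as did Foxa1 and Lmx1b, and the other neighbours did not. At 39 °C Nr4a2 again came first with 93.9 ± 0.169 and Foxa1 and Lmx1b last, with 22.5 ± 4.87 (n = 4) and 2.36 ± 2.73 (n = 2). Msx1 (82.9 ± 2.70), Pitx3 (80.6 ± 2.83) and Foxa2 (80.2 ± 0.437) overlapped as neighbours at 39 °C, followed by En1 (77.7 ± 0.912) and En2 (58.9 ± 3.32; SD, n = 4 each). Nr4a2 lay above the library median of promoter regions in all 8 libraries.

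**Figure D1:**
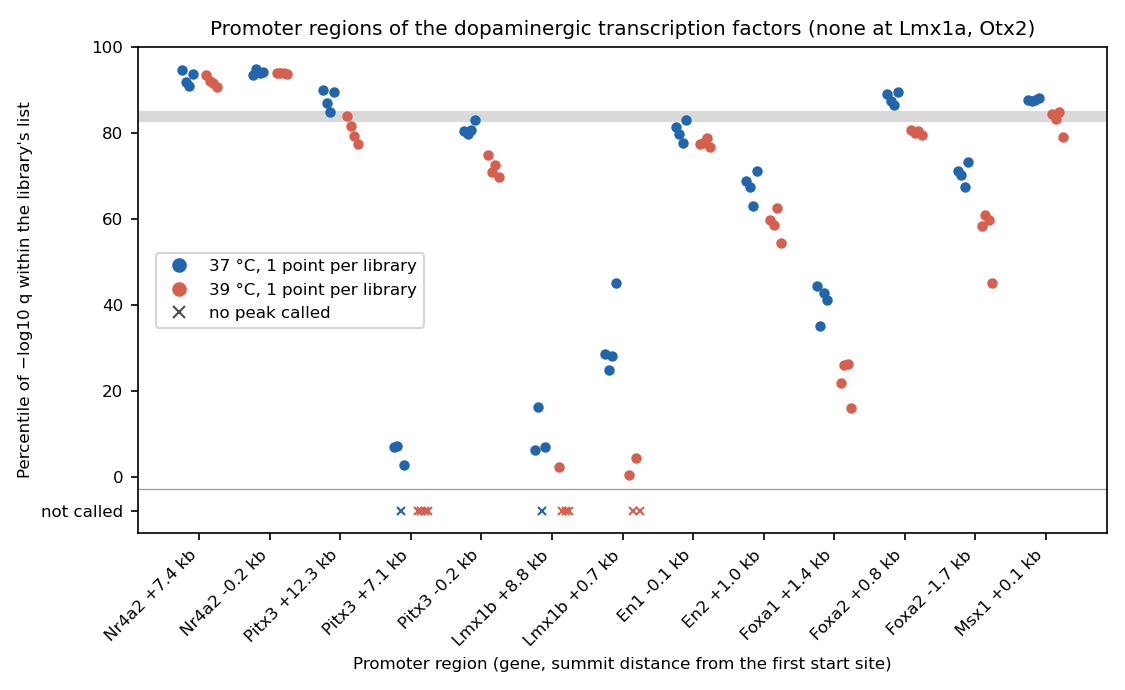
Percentile of −log10 q within the peak list of each library (y axis) for the 13 promoter regions (x axis, named by the distance of the summit from the first TSS), 1 point per library, blue for 37 °C and red for 39 °C, with crosses where no peak was called. The grey band spans the library medians over promoter regions of protein-coding genes, 82.7 to 84.9. Both Nr4a2 regions lie above the band in every library, and both Lmx1b regions and the intronic Pitx3 region have libraries without a peak.

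Lists were shorter at 39 °C, and the same region sat lower in them: the median within-list difference over the 44861 regions called in all 8 libraries was -6.84 percentile points. Temperatures were therefore compared by the percentile of a region among those shared regions alone, where the median difference was -0.148. Of the 13 promoter regions, 10 were shared. Of these, 3 ranked lower at 39 °C and 2 higher (limma, Benjamini-Hochberg adjusted p under 0.05), against 17.5% and 11.2% of the promoter regions of protein-coding genes. By the within-list percentile the split was 7 lower and 0 higher, against 63.8% and 0.621%. With regions built from summits the 3 lower differences still passed (-6.66 to -5.23), but 1 lower region counted as a promoter and 7 as distal. The median over the 10 regions was -1.58, and over all 14009 shared promoter regions -0.0908. Some promoters of marker genes also changed rank. Of the 6 neural progenitor genes, Nes (-6.29, adjusted p = 0.00117) and Sox2 (-1.78, 0.0165) ranked lower at 39 °C. Of the 5 mesenchymal genes Col1a2 ranked lower (-4.38, 0.0456) and Twist1 (2.49, 0.00380) and Prrx1 (2.05, 0.0398) higher, although within the lists Prrx1 was lower in the mean (90.7 at 37 °C and 89.4 at 39 °C). Of the 4 neuronal genes with a shared promoter region 0 passed in limma, and 0 had an unadjusted p under 0.05. Their part in the values of the members was not tested.

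Foxa2 gave the firmest promoter difference. Its main promoter region (chr2:148043541-148047367) is merged over the libraries and covers the first TSS and much of the gene. The rank was 79.7, 78.8, 78.2 and 78.8 in replicates 1 to 4 at 37 °C and 72.2, 71.6, 71.0 and 75.8 at 39 °C. All libraries at 39 °C lay below all at 37 °C (difference -6.22, SE 1.05, limma adjusted p = 0.000622). A separate region, with its summit 1.7 kb upstream, met the 1 kb limit only through replicate 1 at 37 °C, a deep library whose peak ended at -0.833 kb from the TSS. In the other 7 libraries it ended at -1.166 to -1.236 kb, so its place among the 3 lower promoter regions rests on that library. It ranked 46.1, 50.2, 48.5 and 46.1 at 37 °C and 41.2, 45.3, 41.5 and 36.9 at 39 °C. Its values at 39 °C lay below those at 37 °C (difference -6.51, SE 2.08, adjusted p = 0.0257). The call on the upstream region was lost without replicate 2 (-5.68, adjusted p = 0.0769) or 3 at 37 °C (-6.16, 0.0521), and without replicate 1 (-6.47, 0.0527) or 4 at 39 °C (-4.52, 0.0659). The call on the main region held without each library in turn, at -6.50 to -5.65. The called width, summed over the peaks of a library in the region, was 3096 to 3827 bp at 37 °C and 2216 to 2427 bp at 39 °C. In replicate 3 at 37 °C it was a sum over separate peaks.

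For Foxa1, the other forkhead factor, the promoter region was weak: among the shared regions it ranked 7.30, 6.75, 15.9 and 3.73 at 37 °C and 4.09, 7.18, 6.02 and 8.68 at 39 °C. The groups overlapped and the difference was -1.93 (95% interval -7.40 to 3.55, adjusted p = 0.573). By the within-list percentile it was -18.3 (adjusted p = 0.00588), without overlap.

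The 2 regions of Pitx3 that all libraries called were both lower in the mean at 39 °C, and 1 passed the test. The region over the internal start sites and the 3′ part of the gene (chr19:46133895-46138132) ranked 81.5, 78.0, 75.4 and 78.8 at 37 °C and 76.9, 73.9, 69.3 and 73.2 at 39 °C (difference -5.10, SE 1.58, adjusted p = 0.0222). The groups overlapped through replicate 3 at 37 °C and replicate 1 at 39 °C. That call was lost without replicate 1 (-4.04, adjusted p = 0.0589) or 4 at 37 °C (-4.96, 0.0520) and without replicate 3 at 39 °C (-3.76, 0.0566), and with the 2 deep libraries left out (-3.30, 0.174). At the first TSS the ranks were 63.2, 65.9, 69.2 and 65.5 at 37 °C and 64.3, 59.2, 59.7 and 64.3 at 39 °C. This difference of -4.06 (SE 1.65) did not pass (adjusted p = 0.0678), but passed without replicate 1 at 37 °C (-4.96, 0.0356) or replicate 4 at 39 °C (-4.36, 0.0417). It also passed with the 2 deep libraries left out (-5.59, 0.0455) and within the lists (-8.90, 0.00125). A small region in an intron was called in 3 libraries at 37 °C and in 0 at 39 °C, at percentiles of 2.73 to 7.20.

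En1 and the first TSS of Nr4a2 went the other way among shared regions, while by the within-list percentile both differences turned, to -2.75 and -0.217. The En1 promoter ranked 64.9, 65.8, 64.2 and 65.7 at 37 °C and 67.7, 68.4, 68.8 and 72.4 at 39 °C. All libraries at 39 °C were above all at 37 °C (difference 4.16, SE 1.18, adjusted p = 0.0143), and without each library in turn the difference was 2.81 to 4.66. The Nr4a2 region at the first TSS ranked 87.9, 91.3, 90.1 and 88.4 at 37 °C and 91.5, 91.2, 91.0 and 92.5 at 39 °C. The groups overlapped and the difference was small (2.13, SE 0.742, adjusted p = 0.0371). It did not pass without replicate 1 (1.61, adjusted p = 0.0908) or 4 at 37 °C (1.79, 0.105), nor without replicate 1 (2.14, 0.0702), 2 (2.24, 0.0582) or 4 at 39 °C (1.63, 0.0984). With the 2 deep libraries left out it was 0.847 (adjusted p = 0.329). With a replicate block in the limma fit the Nr4a2 difference did not pass either (2.13, adjusted p = 0.0543).

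The other shared promoters did not pass by rank among the shared regions. The second Nr4a2 region, over start sites within the gene, differed by 1.61 (95% interval -0.564 to 3.78, adjusted p = 0.218), with -0.860 by the within-list percentile. It passed without replicate 1 at 37 °C (2.52, adjusted p = 0.0287) and with both deep libraries left out (3.01, 0.0212). En2 differed by 1.60 (-2.54 to 5.75, 0.533), with -8.80 by the within-list percentile (adjusted p = 0.0277), the opposite direction. Msx1 differed by -1.23 (-3.43 to 0.979, 0.358), and by -4.80 within the lists (adjusted p = 0.00300).

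Width passed the test at 1 promoter. It was taken as log2 of the bases called in a region, summed over its peaks, relative to the median of the library. Of the 10 promoter regions 0 were narrower (limma, 0 also at an unadjusted p under 0.05) and 1 was wider at 39 °C, against 11.5% and 8.72% of promoter regions of protein-coding genes. The wider region was the second of Nr4a2 (log2 difference 0.30, SE 0.09, adjusted p = 0.0362), for which the called width was 3855 to 4365 bp at 37 °C and 3871 to 4252 bp at 39 °C. Without the library median taken off, its difference was -0.00 and all shared regions narrowed by 0.24 in the median (log2 difference -0.24). On that scale the main Foxa2 region (-0.51, adjusted p = 0.00556) and the first TSS of Pitx3 (-0.45, 0.0103) passed as narrower. The Nr4a2 call was lost without any 1 of replicates 1, 2 and 4 at 37 °C or 2, 3 and 4 at 39 °C, with adjusted p-values of 0.0580 to 0.104 and differences of 0.259 to 0.325.

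The mean number of distal regions called was lower at 39 °C at 7 of the 10 loci. All lists at 39 °C were shorter, and the share of all protein-coding loci with a lower mean is not given here. The count is therefore not read as a result about the members. With equal numbers of peaks per library the mean number was lower at Lmx1b (-0.750), En1 (-0.250) and Msx1 (-0.250) alone, and higher at Pitx3, Lmx1a and Foxa1. Of the 44 distal regions, 28 lay between genes, 15 in introns and 1 in an exon, and 2 lay within 1 kb of the TSS of another gene (Elovl3 and Gbf1, both in the Pitx3 window). Counting promoter and distal regions together, 47.4% of the 57 regions were called in fewer libraries at 39 °C (37.9% of all regions) and 5.26% in more (5.46% of all regions). Libraries called 43 to 54 of the 57 at 37 °C and 28 to 44 at 39 °C.

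At Foxa2 every library called 2 distal regions at 37 °C and 1 at 39 °C (two-sided exact permutation test, p = 0.0286, the lowest that can be reached, adjusted p = 0.0838). With equal numbers of peaks the difference was 0 (exact p = 1.00). Foxa2 was the 1 member of 10 whose groups did not overlap downwards, and 0 of 10 did so upwards. Over all loci these shares were 33.9% and 0.192%, and the counts of members were not tested against them. En1 had 8, 7, 8 and 7 distal regions at 37 °C and 4, 5, 7 and 3 at 39 °C (difference -2.75, exact p = 0.0857). It separated without replicate 3 at 39 °C (-3.50).

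Lmx1b had the most distal regions, with 13, 9, 8 and 13 at 37 °C and 8, 9, 9 and 4 at 39 °C (difference -3.25, exact p = 0.257). The highest counts at 37 °C came from the 2 deep libraries and the lowest at 39 °C from the shortest list. With the 2 deep libraries left out the difference was 0 (exact p = 1.00), and with equal numbers of peaks -0.750 (0.286). Pitx3 had 6, 5, 4 and 7 against 3, 4, 4 and 3, and Nr4a2 had 2, 2, 1 and 2 against 0, 1, 1 and 0 (exact p = 0.0857 for both). With equal numbers of peaks the differences were 0.25 at Pitx3 and 0 at Nr4a2, and with the 2 deep libraries left out both were -0.500 (exact p = 0.467). Without replicate 3 at 37 °C both separated (-2.50 and -1.50), while without replicate 1 or 4 at 37 °C Pitx3 differed by -1.17 and -0.500.

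The remaining 5 loci held few distal regions and their groups overlapped. Otx2 had 2 in each library, and Lmx1a 3 in each except replicate 4 at 39 °C, which had 2. Msx1 had 2 in each except the same library, with 1. En2 had 1 to 3 and Foxa1 0 or 1, with means that were higher at 39 °C by 0.25 and 0.500 (exact p = 1.00 and 0.486).

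**Figure D2:**
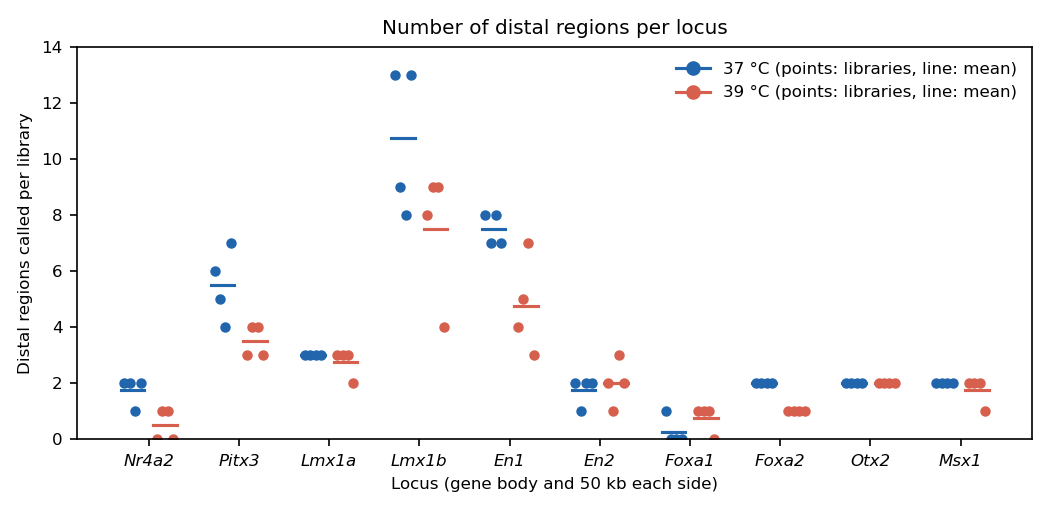
Number of distal regions called per library (y axis) at each locus (x axis), 1 point per library, blue for 37 °C and red for 39 °C, with lines at the group means. Foxa2 is the locus where the groups do not overlap, at 2 against 1, and Otx2 is level at 2 in all 8 libraries.

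A region is termed restricted here if it was called in 4 of 4 libraries at one temperature and 0 of 4 at the other. The region 44.9 kb upstream of the TSS (chr2:148091683-148092209), between genes, stood at percentiles of 30.4, 32.5, 14.2 and 34.0 in replicates 1 to 4 at 37 °C and was called in no library at 39 °C. It was the 1 member region of 57 restricted to 37 °C, and 0 were restricted to 39 °C, against 6.04% and 0.314% of all regions. With every list cut to the 54845 peaks of the shortest, replicates 1, 3 and 4 at 37 °C no longer called this Foxa2 region. The restriction thus depended on the unequal length of the lists. No region passed Fisher's exact test after adjustment over the 84777 regions, and 5386 had an unadjusted p under 0.05. When each library was left out in turn, 1 to 4 member regions were restricted to 37 °C: 4 without replicate 3 at 37 °C, and 2 without replicate 2 or 3 at 39 °C. At 39 °C 1 was restricted without replicate 2 at 39 °C. The other distal region of Foxa2, 33.4 kb downstream in an intron of 9030622O22Rik, was called in all 8 libraries and was the highest-ranked distal region there (difference -4.08, SE 1.66, adjusted p = 0.0676).

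In 3 cases a region was called in more libraries at 39 °C. The Lmx1b intron region 53.0 kb from the TSS (chr2:33586999-33587886) was called at 37 °C by the deep replicates 1 and 4 alone, at percentiles of 4.13 and 2.73. At 39 °C all 4 libraries called it, at 13.0, 12.9, 24.6 and 7.71. A region 19.3 kb downstream of the En2 TSS was called at 39 °C in replicates 1, 3 and 4, at percentiles of 4.78, 9.62 and 2.02, and in no library at 37 °C. A region 37.7 kb downstream of the Foxa1 TSS was called in replicate 1 at 37 °C, at 11.7, and in replicates 1, 2 and 3 at 39 °C, at 20.0, 26.9 and 7.40. All 3 regions were named after their values were seen.

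**Figure D3:**
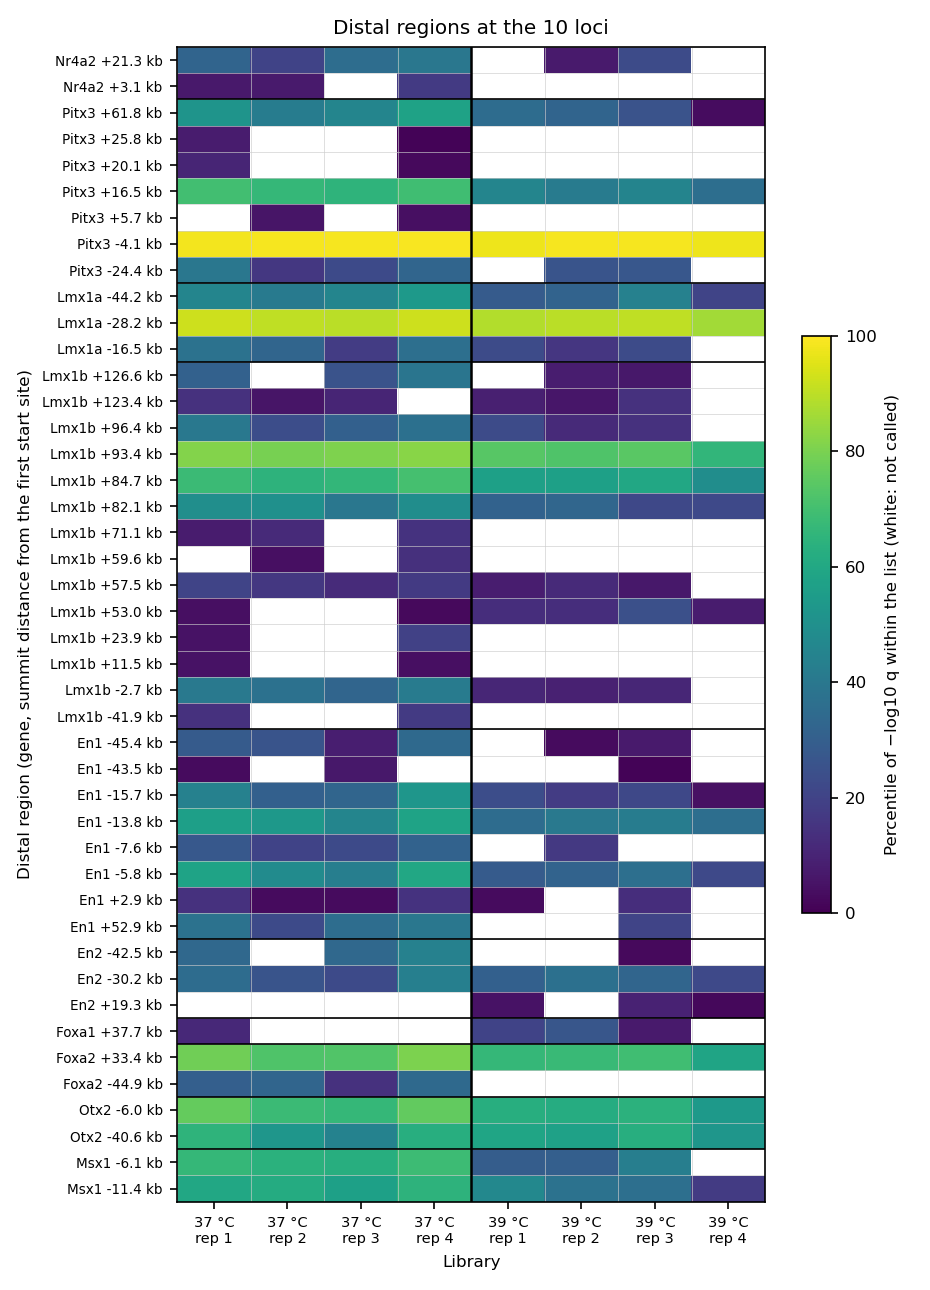
Percentile of −log10 q within the peak list (colour) of the 44 distal regions (rows, by gene and distance of the summit from the first TSS) in the 8 libraries (columns), white where no peak was called. The Foxa2 region at −44.9 kb is filled in the 4 columns at 37 °C alone, and the Lmx1b region at +53.0 kb in all 4 columns at 39 °C. List lengths were not made equal.

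Of the 44 distal regions, 16 were called in all 8 libraries and could be compared by rank. Of these, 5 ranked lower at 39 °C and 2 higher, against 24.1% lower and 24.1% higher among the shared regions that are no promoter of a protein-coding gene. The Elovl3 and Gbf1 regions, 2 of the 16, belong to the promoter background given above. By the within-list percentile the split was 13 lower and 0 higher, against 61.5% lower and 1.87% higher among the same other regions. The median difference over the 16 was -3.35, beside -0.231 for the 30852 other shared regions.

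Among the progenitor factors, Msx1 and Otx2 showed the widest shifts by rank among the shared regions, in opposite directions. The region 11.4 kb upstream of Msx1 (chr5:37835109-37836532), whose sequence holds the NBRE, ranked 26.3, 36.2, 32.6 and 29.8 at 37 °C and 25.7, 16.4, 13.5 and 9.96 at 39 °C. It fell without overlap (difference -14.8, SE 3.36, adjusted p = 0.00409), and without each library in turn the difference was -18.0 to -11.9. Its neighbour 6.1 kb upstream of Msx1, the highest-ranked distal region there in each library at 37 °C, was called at within-list percentiles of 66.6, 63.8, 62.6 and 68.7 at 37 °C. At 39 °C it stood at 29.4, 30.4 and 42.6 and was not called in replicate 4, so all values at 39 °C lay below those at 37 °C. By this percentile 61.5% of the shared regions that are no promoter of a protein-coding gene passed as lower at 39 °C (limma). The neighbour was not shared by all 8 libraries and so had no rank test.

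The Otx2 gene had no promoter region, but 2 regions in introns of the antisense transcript Otx2os1 were called in every library. The one 40.6 kb upstream of the first Otx2 TSS (chr14:48713951-48714890) ranked 35.1, 23.3, 17.3 and 26 at 37 °C and 41.7, 40.5, 45.6 and 45.1 at 39 °C. All values at 39 °C were above those at 37 °C (difference 17.8, SE 3.30, adjusted p = 0.00119). By the within-list percentile it differed by 1.71 (adjusted p = 0.747). The other, 6.0 kb upstream and higher in every library, did not pass (-3.26, SE 2.04, adjusted p = 0.224).

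En1 and En2 each had 1 distal region that passed. The region 5.8 kb upstream of En1 (chr1:120596175-120597540) ranked 23.1, 18.0, 15.9 and 21.8 at 37 °C and 7.87, 11.2, 13.5 and 13.9 at 39 °C, without overlap (difference -8.07, SE 2.27, adjusted p = 0.0138). The En1 promoter and this nearby region thus moved in opposite directions among the shared regions, although both differences were negative within the lists. With the 2 deep libraries left out the distal difference was -5.11 (adjusted p = 0.187). The region 30.2 kb upstream of En2 (chr5:28134807-28135770) was near the bottom at 37 °C, at 2.89, 3.01, 3.28 and 4.57, and stood at 9.44, 15.9, 10.1 and 13.9 at 39 °C. It rose without overlap among the shared regions (8.90, SE 1.89, adjusted p = 0.00275) but differed by -1.12 within the lists. It was the 1 distal region at En2 called in all 8 libraries, and the highest-ranked distal region at En1 by the mean over libraries was 13.8 kb upstream (difference -0.872, SE 2.85, adjusted p = 0.835).

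The same fit of width placed the En2 region (log2 difference 0.50, SE 0.11, adjusted p = 0.0106) and the Otx2 region (0.43, SE 0.11, 0.0194) among the wider regions at 39 °C. The En1 region 13.8 kb upstream was narrower (-0.46, SE 0.14, adjusted p = 0.0423). Over the other shared regions 11.5% were wider and 9.91% narrower. Without the library median taken off, these differences were 0.20, 0.13 and -0.76 and none passed (adjusted p = 0.397, 0.635 and 0.0516). Distal widths were read after the ranks were known.

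At the LIM homeodomain genes Lmx1a and Lmx1b the strongest regions were distal, upstream of the first and downstream of the second. The region 28.2 kb upstream of Lmx1a stood at within-list percentiles of 92.5, 90.3, 89.8 and 92.5 at 37 °C and 88.6, 89.6, 90.3 and 86.1 at 39 °C. Its rank among shared regions differed by -0.0446 (95% interval -1.70 to 1.61, adjusted p = 0.971). The highest distal region of Lmx1b lay 93.4 kb downstream of the TSS, past the 3′ end of the gene (chr2:33545743-33547769). It ranked 65.1, 65.6, 69.2 and 64.0 at 37 °C and 62.7, 60.9, 62.5 and 60.2 at 39 °C, and fell without overlap (difference -4.39, SE 1.33, adjusted p = 0.0197). Without each library in turn this was -5.05 to -3.26. The Lmx1b promoter itself, at percentiles of 28.6, 24.9, 28.1 and 45 at 37 °C, stood at 0.425 and 4.29 in replicates 1 and 3 at 39 °C and was not called in replicates 2 and 4. That region also lies within 1 kb of a start site of C130021I20Rik, so it belongs to both.

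In the Pitx3 window the largest shift sat at a neighbour. The region over the start of Elovl3, a fatty acid elongase gene, 16.5 kb downstream of the first Pitx3 TSS (chr19:46130509-46133181), ranked 43.4, 44.4, 44.9 and 38.6 at 37 °C and 24.3, 20.8, 22.4 and 27.3 at 39 °C. It fell (difference -19.1, SE 2.27, adjusted p = 5.625e-05), the largest difference in either direction among the 26 shared member regions. The region at the start of Gbf1, 4.1 kb upstream, was the highest-ranked in the window, at within-list percentiles of 97.4 to 99.1 in the 8 libraries (difference -0.169, SE 0.513, adjusted p = 0.822). A region 61.8 kb downstream ranked 14.3, 11.7, 18.7 and 18.2 at 37 °C and 13.3, 11.8, 5.57 and 0.967 at 39 °C (difference -7.81, SE 2.86, adjusted p = 0.0455). That call was lost without replicate 1 (-8.28, adjusted p = 0.0633), 3 (-7.53, 0.0825) or 4 at 37 °C (-6.98, 0.115) and without replicate 3 (-7.06, 0.105) or 4 at 39 °C (-4.98, 0.227). It was also lost with equal numbers of peaks (-5.09, limma adjusted p = 0.120) and with the 2 deep libraries left out (-7.21, 0.179). A replicate block (0.0788) and the logit of the percentile (0.0837) ended the call as well.

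At Nr4a2 the distal regions were few and weak beside its promoter. The highest-ranked, 21.3 kb downstream of the first TSS, was called in all 4 libraries at 37 °C at within-list percentiles of 20.1 to 39.8, and at 39 °C in replicates 2 and 3, at 7.16 and 22.7. The second, 3.1 kb into the gene, was called in replicates 1, 2 and 4 at 37 °C, at 6.94 to 17.0, and in none at 39 °C, and was named after its values were seen.

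**Figure D4:**
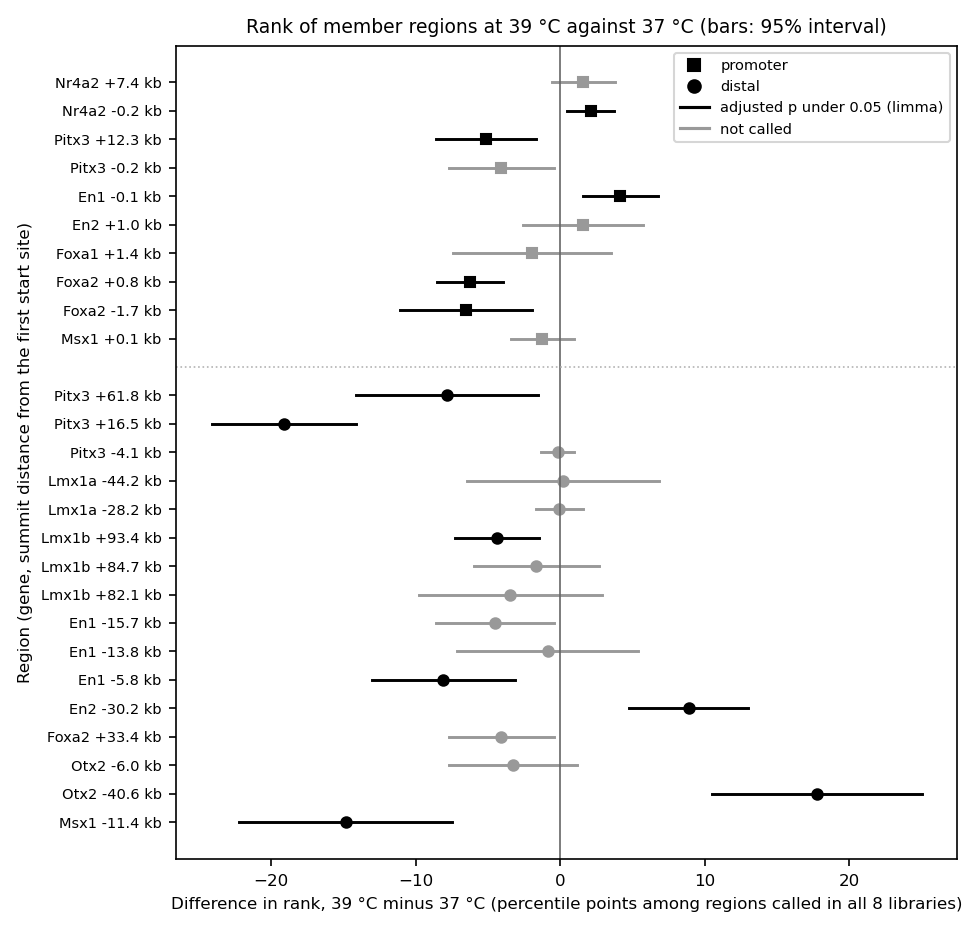
Difference in rank at 39 °C minus 37 °C (x axis, percentile points among the regions called in all 8 libraries) of the 10 shared promoter regions (squares) and 16 shared distal regions (circles), with 95% intervals from limma, black where the adjusted p was under 0.05. The distal differences reach from -19.1 at the Elovl3 start in the Pitx3 window to 17.8 at the Otx2 region, while the promoter differences lie between -6.51 and 4.16.

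**Figure D5:**
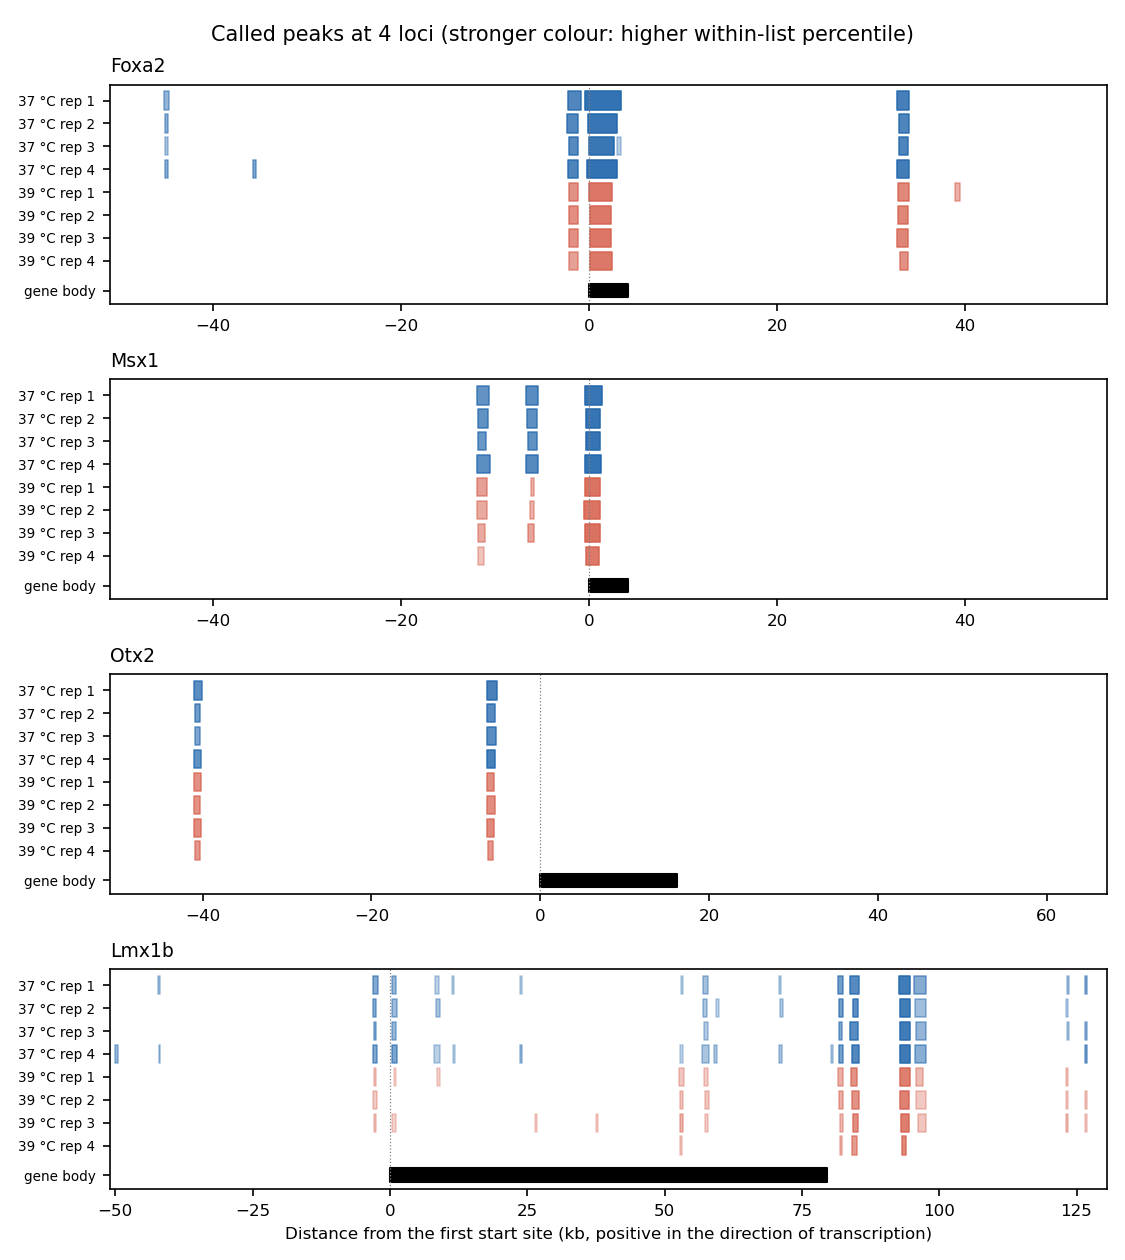
Called peaks (bars) in each library (rows, blue for 37 °C and red for 39 °C) against the distance from the first TSS in kb (x axis) at Foxa2, Msx1, Otx2 and Lmx1b, with stronger colour for a higher within-list percentile and the gene body in black. The maps show the Foxa2 peak at −44.9 kb in the 4 libraries at 37 °C alone, and no peak at the Otx2 start. They also show the peaks past the 3′ end of Lmx1b, highest at +93.4 kb. List lengths were not made equal.

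Motif shares are given as a description, without a test. AP-1 (TGANTCA) matched in 34.1% of the 44 distal windows of 200 bases and in 33.9% of all 66466 distal windows, TEAD (GGAATG) in 20.5% and 19%, and RUNX (TGTGGT) in 22.7% and 27.7%. Letters bound by the members' own families were rare in both sets. The homeodomain core TAATTA (LMX, EN and MSX) matched in 4.55% and 3.20%, the bicoid class site TAATCC (PITX and OTX) in 6.82% and 5.77%, the forkhead site TGTTTAC in 2.27% and 3.25%, and the NBRE AAAGGTCA in 2.27% and 1.45%. Both strands were searched, and TAATTA and TAATCC share their first 4 letters. The 1 forkhead match was in the Foxa2 region restricted to 37 °C and the 1 NBRE in the Msx1 region that fell, both printed above.

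Most paralogs were open at their promoters. Of 8, 7 (among them Nr4a1, Nr4a3, Foxa3, Otx1 and Msx2) had a promoter region in all 8 libraries, and Pitx1 in 7. Msx2 ranked higher at 39 °C (4.40, SE 1.10, adjusted p = 0.00722), with within-list means of 84.5 at 37 °C and 82.9 at 39 °C, and the other 6 shared ones did not pass. Otx1 stood at within-list means of 98.3 and 97.6 at 37 °C and 39 °C, where Otx2 had no promoter region.

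Other genes of the DA network were counted by role, beside the background of 61.1% of all protein-coding genes. Of the signals, 3 of 4 (Shh, Wnt1 and Fgf8) had a promoter region in all 8 libraries, and Wnt5a in 3 at 37 °C and 0 at 39 °C. Of 7 partners and proneural factors 6 did (among them Ldb1, Rxra, Sox6 and Neurog2). Of these 9 shared promoters 0 passed the rank test (limma), and 0 had an unadjusted p under 0.05. Of the 7 DA neuron genes that lie downstream, 2 had a promoter region in all 8 libraries. Th, the rate-limiting enzyme of dopamine synthesis and the gene whose promoter drives the transgene of this line, ranked lower at 39 °C (-12.1, SE 2.21, adjusted p = 0.00104). Ret, the receptor for glial cell line-derived factors, ranked higher among shared regions (7.81, SE 1.62, 0.00237), with within-list means of 71.0 at 37 °C and 68.0 at 39 °C. Slc6a3 (the dopamine transporter) was called in 4 libraries at 37 °C and 1 at 39 °C and Aldh1a1 in 4 and 3. Slc18a2, Ddc and Drd2, which encode the vesicular transporter, the decarboxylase and a receptor, had none.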

How the data were processed

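Open chromatin of SN4741 cells was profiled by ATAC-seq in 8 libraries, 4 at 37 °C and 4 at 39 °C. Per the labels, the authors aligned reads to mm10 with Bowtie2 2.4.1, handled alignments with SAMtools 1.15.1, Picard 2.26.11 and bedtools 2.30.0, and called peaks in each library with MACS3 3.0.0a7 at a q-value of 0.05, without a control. The deposited lists hold for each peak a pileup signal, a fold enrichment (a ratio to the background of the library), and p-values and q-values on the −log10 scale. Of these, position, summit and −log10 q were used here, to call and rank regions. The lists hold no read counts, so the count comparison of the study (DiffBind with DESeq2) could not be run.

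Regions, promoters and windows were built as the report states, with start sites from GENCODE M21. Within a library, regions were ranked by −log10 q, either within the whole list or among the 44861 regions that all 8 libraries called. Rank and log2 width (minus the library median) were tested with limma 3.58.1 (trend, R 4.3.3) and adjusted by Benjamini-Hochberg over all shared regions. Numbers of regions were compared by the exact permutation test over 70 assignments, two-sided, enumerated with numpy 2.4.6. Calls were compared by Fisher's exact test with scipy 1.17.1. Merging was checked against bedtools 2.31.1 and limma was tested on simulated data. Depth, 49.8 to 169 M fragments, came from the file headers. The lists give no interval for a peak score.

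Members, gene lists, motifs and tests were chosen with earlier results of these data known. Distal regions are named where restricted to 1 temperature, where called in the rank test, or as the highest-ranked of each gene, and others were chosen after their values were seen. Alternatives were another peak threshold, equal numbers of peaks, the 6 libraries under 100 M fragments, each library left out, other promoter and flank distances, overlap, scalings, region forms and tests, and a replicate block. RefSeq GRCm38.p6 supplied all sequences. Values of some genes on the comparison lists, and 1 promoter sequence, are not reported here.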

Additional observations from a re-analysis of the deposited data

Results flagged for a closer look

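In groups of 4 libraries, 1 library stood apart from the other 3 by Dixon's test in 9 of 62 group values, where chance gives about 1 in 20 (3 of 62). Most are small counts, in which a single region sets 1 library apart. Replicate 4 at 39 °C, the shortest list, accounted for 4: it called 2 distal regions at Lmx1a where the others called 3, 0 at Foxa1 where the others called 1, and 1 at Msx1 where the others called 2, and it placed the region upstream of the Foxa2 promoter at a within-list percentile of 45.1, where the next was 58.4. At 37 °C, replicate 3 called 1 distal region at Nr4a2 and replicate 2 called 1 at En2, where the others called 2 each, and replicate 1 called 1 at Foxa1 where the others called 0. The width of the main Foxa2 promoter region was 3827 bp in replicate 1 at 37 °C, with 3197 bp next, and that of the first Pitx3 promoter region 2541 bp in replicate 4 at 37 °C, with 2211 bp next. These 2 libraries were the deep ones. The part of depth in these values was not tested.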

How the results depend on the processing

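Of 653 recomputed values, 532 stayed on their side of the threshold without reversing (counts within 1.5 times; 7 of these differences came to 0), 43 counts moved, 52 values lost a call, 15 gained one and 11 reversed. By the percentile within the whole list, promoter regions split 7 lower and 0 higher and distal regions 13 and 0, and the differences at Nr4a2 (-0.860 and -0.217), En1 (-2.75), En2 (-8.80) and the En2 distal region (-1.12) reversed. By the exact permutation test every rank and width count was 0, since its smallest p of 0.0286 cannot pass adjustment at these numbers (adjusted p of at least 0.0744). Summit windows left 1 promoter region lower and 7 distal regions lower, since the class of regions changed while the 3 promoter differences still passed. Equal numbers of peaks left 1 distal region higher, and reversed the mean numbers at Pitx3 and Lmx1a (both 0.25). They left 0 loci separated downward in distal number, with every library at 37 °C above every library at 39 °C. With a flank of 25 kb 0 distal regions were higher and 0 restricted to 37 °C. With 100 kb, 14 distal regions were lower and 10 higher, 2 were restricted to 37 °C, 2 loci separated downward and En2 reversed (-0.500). At a −log10 q of at least 5, En2 also reversed (-0.750) and 2 regions were restricted to 37 °C, as with 50% of a region covered, where 2 loci separated downward. With the deep libraries left out 0 promoter regions were wider and 1 region was restricted to 39 °C. Without the library median taken off, 2 promoter regions were narrower and 0 wider, and the Nr4a2 width difference reversed (-0.000946).

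Leaving out 1 library at a time gave 1 to 2 promoter regions higher, 0 to 1 wider, 1 to 4 restricted to 37 °C and 0 to 1 restricted to 39 °C. It gave 1 to 3 loci separated downward in distal number, and the En2 number difference ran from -0.0833, without replicate 3 at 39 °C, to 0.583. The causes were not tested. Libraries with the same number did not deviate together (correlations 0.101, -0.0855, 0.108 and -0.0672), and of the 4 only replicate 3 correlated best with its own number. A replicate block left 1 promoter region higher and 0 wider. The lists hold no read counts, so the precision that depth gives a region could not be computed.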
